A study of Homo sapiens with 6 samples.

Results

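Of the 20811 genes measured in HuCCT1 cells, 9 were taken by name because their products carry latent TGF-β or build the microfibrils on which it is stored. They comprise the latent TGF-β binding protein genes LTBP1, LTBP2, LTBP3 and LTBP4, the fibrillin genes FBN1 and FBN2, the microfibril-associated glycoprotein genes MFAP2 and MFAP5, and LRRC32, and each has 1 amplicon in the table. HuCCT1 is a human intrahepatic cholangiocarcinoma (iCCA) line. CD90 is encoded by THY1. The HuCCT1/CD90+ line was transduced with human THY1-CMV-GFP lentivirus and the HuCCT1/CD90− line with the blank one named Lenti-CMV-GFP-2A-Puro-Blank, so that both lines were transduced, and GFP is in the name of both vectors. The study compared the lines to learn what follows in iCCA cells from a higher level of CD90, with TGF-β signalling as one of its questions. There were 3 libraries of each line. The sources used here do not say whether they came from separate cultures or whether a line is a clone, so p-values measure only the spread between these libraries, which may be technical.

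TGF-β is secreted in a latent form, held by its own propeptide. LTBP1, LTBP3 and LTBP4 bind this small latent complex through a disulphide bond and tether it to the matrix, while LTBP2 has the family's structure but is not known to bind latent TGF-β. Fibrillins, the products of FBN1 and FBN2, polymerise into microfibrils, which bind LTBPs and form the scaffold of elastic fibres. MFAP2 and MFAP5, also called MAGP-1 and MAGP-2, decorate fibrillin microfibrils. LRRC32, also called GARP, holds latent TGF-β on the surface of regulatory T cells and platelets instead. Integrins and proteases then release the active ligand. In the liver and in iCCA these matrix genes are mostly discussed as products of stromal fibroblasts.

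The authors' values are RPM, which scale the reads of an amplicon by the total of its library. That total was 8587634 to 10551516 reads on genes, and because RPM rise in steps of 1 read, the reads themselves could be recovered. A count of 3 reads, used as the detection floor of a library, corresponded to 0.284 to 0.349 RPM and covers counting error only. THY1 was at or below 1 read in every HuCCT1/CD90− library and at 435 to 680 reads in HuCCT1/CD90+. The biliary keratins were abundant in both lines, KRT7 having means of 3433 (HuCCT1/CD90−) and 3656 RPM (HuCCT1/CD90+).

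The 9 genes lie on 8 different chromosomes, LTBP3 and LRRC32 sharing chromosome 11. Positions are those of the GENCODE 29 annotation of GRCh38; the table itself gives no coordinates, and the exon an amplicon reads is not known. LTBP1 spans chr2:32946972-33399509 on the plus strand, with up to 34 exons in a coding transcript, and LTBP2 spans chr14:74498170-74612378 on the minus strand. LTBP3 lies at chr11:65538805-65558930 on the minus strand and LTBP4 at chr19:40592883-40629818 on the plus strand. FBN1 covers chr15:48408306-48645849 and FBN2 chr5:128257909-128659185, with up to 66 and 71 exons. MFAP2 is far more compact, at chr1:16974502-16980835 with up to 9 exons, and MFAP5 lies at chr12:8637346-8662888, all 4 on the minus strand. LRRC32 lies at chr11:76657524-76670747 on the minus strand. Annotated antisense transcripts overlap LTBP1, MFAP2 and LRRC32, and the protein-coding gene SLC27A6 overlaps FBN2 on the opposite strand. A long non-coding RNA overlaps LTBP2 and a pseudogene overlaps MFAP5, both on the opposite strand, and an intronic transcript overlaps FBN1 on the same strand. Reads of such partners cannot be told apart here, since the counting is not stated to use strand.

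The promoter letters are shown for genes that were lower in HuCCT1/CD90+, with MFAP2 chosen for the largest change, FBN1 and LTBP1 for the other matches, and LTBP2 for having none. RefSeq windows of GRCh38.p14 were found for 7 of the 9 genes, 12 windows in all because LTBP1, LTBP3, LTBP4 and MFAP2 have several starts. Each run is the 250 bases before a start, 5′ to 3′ on the strand of the gene, and capitals mark every match to 5 motifs searched on both strands: TGANTCA (AP-1), CATTCC (TEAD), CACCTG (ZEB and SNAI), CAGACA (SMAD) and TATAAA (the box of that name).
MFAP2, first start, chr1:16981584-16981833, minus strand: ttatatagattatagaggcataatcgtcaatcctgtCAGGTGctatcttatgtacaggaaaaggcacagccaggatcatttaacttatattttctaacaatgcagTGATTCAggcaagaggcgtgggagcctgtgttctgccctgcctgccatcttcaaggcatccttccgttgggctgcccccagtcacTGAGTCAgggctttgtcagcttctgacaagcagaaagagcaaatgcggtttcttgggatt
FBN1, chr15:48644971-48645220, minus strand: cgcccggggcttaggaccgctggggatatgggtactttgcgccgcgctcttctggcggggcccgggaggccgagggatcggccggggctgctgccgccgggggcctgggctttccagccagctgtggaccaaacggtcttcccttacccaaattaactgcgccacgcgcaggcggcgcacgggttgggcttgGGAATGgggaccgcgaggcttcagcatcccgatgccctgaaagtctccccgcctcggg
LTBP1, second start, chr2:33134119-33134368, plus strand: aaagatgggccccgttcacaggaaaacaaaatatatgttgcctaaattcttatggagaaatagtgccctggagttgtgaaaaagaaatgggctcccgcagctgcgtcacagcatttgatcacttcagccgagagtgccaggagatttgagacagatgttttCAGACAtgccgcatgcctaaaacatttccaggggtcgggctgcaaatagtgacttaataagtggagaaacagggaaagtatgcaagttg
LTBP2, chr14:74612238-74612487, minus strand: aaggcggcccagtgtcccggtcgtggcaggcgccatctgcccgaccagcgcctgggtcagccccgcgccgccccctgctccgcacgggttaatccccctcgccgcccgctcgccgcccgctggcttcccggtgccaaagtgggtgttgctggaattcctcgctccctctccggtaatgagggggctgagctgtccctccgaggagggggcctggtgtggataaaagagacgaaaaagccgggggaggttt
The MFAP2 window holds TGATTCA 145 bases and TGAGTCA 60 bases before the start, both AP-1 matches, and CAGGTG, the ZEB and SNAI letters on the other strand, 214 bases before it. This start lies upstream of the gene body that GENCODE 29 annotates, and the window of the other MFAP2 start has no match. FBN1 has GGAATG, the TEAD letters on the other strand, 58 bases before its start, and the second LTBP1 window has CAGACA 89 bases before its start. Over the 12 windows, AP-1 letters occurred in 1, TEAD in 2, ZEB and SNAI in 2, SMAD in 3 and TATA in 0; in the first LTBP4 window a SMAD and a TEAD match share 1 base. Of all 35116 windows of this length, 6.57% held the AP-1, 11.9% the TEAD, 17.5% the ZEB and SNAI, 13.6% the SMAD and 10.7% the TATA letters. These are matches of letters and not measured binding.

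Of the 9 genes, 5 were lower in HuCCT1/CD90+ and 0 were higher at an adjusted p of at most 0.05 (limma on log2(RPM + 1), Benjamini-Hochberg over 20811 genes). They were MFAP2, LTBP2, FBN1, MFAP5 and LTBP1. Of all genes, 9.52% were called lower and 9.41% higher, and of the 12062 genes whose mean reached 1 RPM, 15% were called lower and 14.4% higher. The same 5 genes passed the fold change of 1.5 and unadjusted p of at most 0.05 that the methods of the study use, where 9.98% of all genes were lower and 10.1% higher. LTBP3 and LTBP4 had lower means in HuCCT1/CD90+ without passing, FBN2 was close to the floor, and LRRC32 was at the floor in both lines. The median log2 fold change was -0.94 over the 9 genes and -1.01 over the 8 that had more than 3 reads in some library, against a median of 0 over all genes. In a fit blocked on replicate number, called the block from here on, 3 of the 9 were lower (MFAP2, LTBP2 and MFAP5), where 6.4% of all genes were lower and 6.72% higher.

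**Figure D1:**
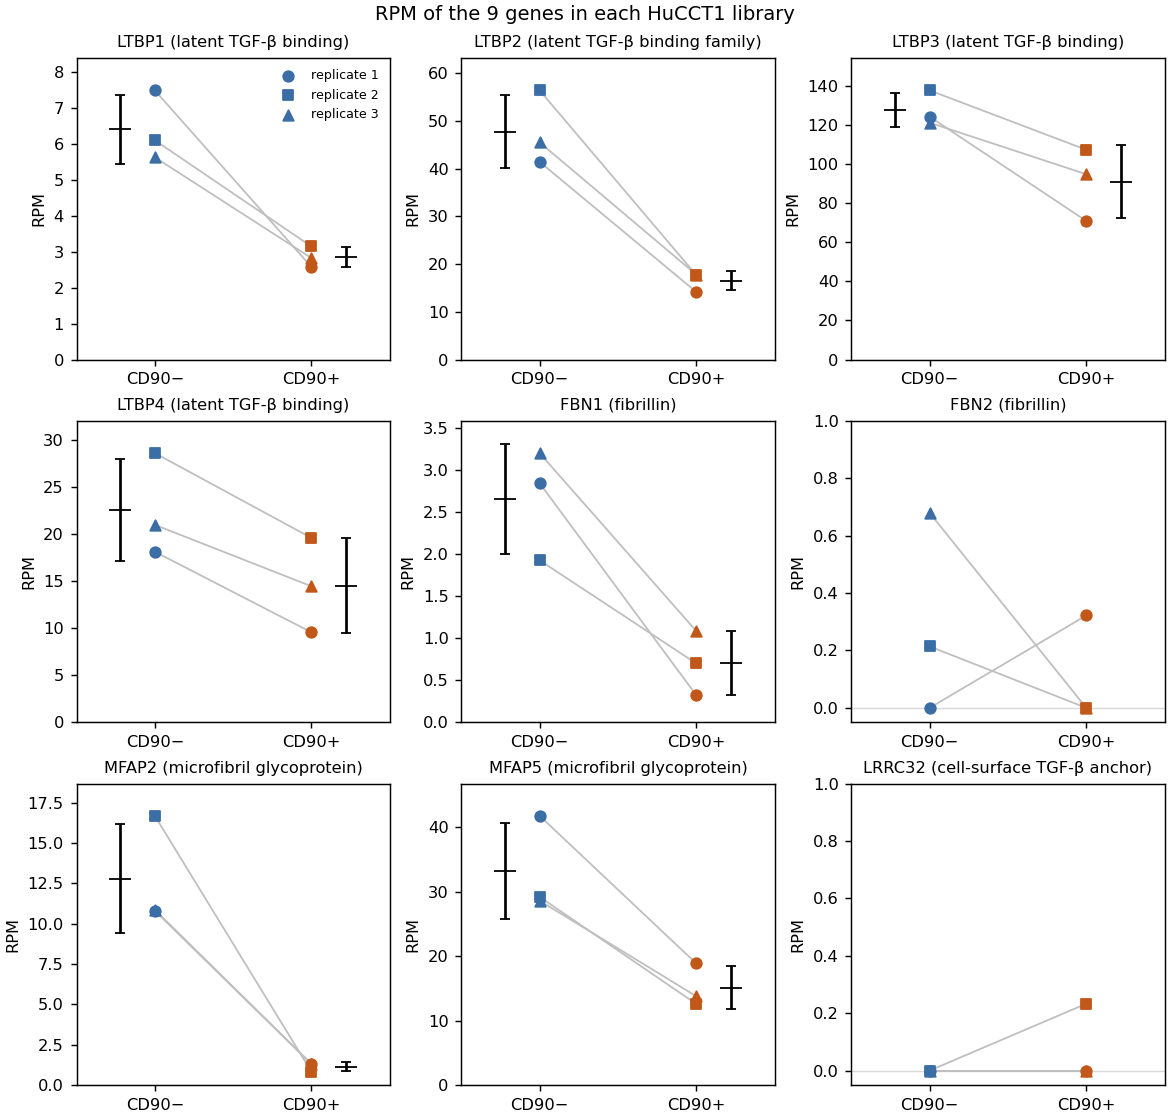
RPM (linear axis from 0) of each of the 9 genes in the 3 HuCCT1/CD90− (blue) and 3 HuCCT1/CD90+ (orange) libraries, with marker shapes and grey lines for the replicate number and black bars for the mean ± SD, left out for FBN2 and LRRC32. The lines do not overlap for LTBP1, LTBP2, LTBP3, FBN1, MFAP2 and MFAP5, whereas for LTBP4 the highest HuCCT1/CD90+ library, 19.6 RPM, exceeds the lowest HuCCT1/CD90− library, 18.1 RPM.

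Among the LTBP genes, LTBP2 changed the most. It had 41.4, 56.4 and 45.5 RPM in HuCCT1/CD90− and 14.2, 17.7 and 17.8 RPM in HuCCT1/CD90+. Every HuCCT1/CD90+ library was therefore below every HuCCT1/CD90− library, and the means were 47.8 ± 7.74 and 16.5 ± 2.08 RPM (SD, n = 3 each), a 2.89-fold fall. On log2(RPM + 1) the change was -1.47 (standard error 0.16, limma adjusted p = 0.0070, or 0.024 with the block), with 132 to 527 reads behind each value.

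LTBP1, a carrier of latent TGF-β, had 7.49, 6.10 and 5.63 RPM in HuCCT1/CD90− and 2.57, 3.14 and 2.82 RPM in HuCCT1/CD90+. The lines did not overlap, and the HuCCT1/CD90+ libraries lay close together at a mean of 2.85 ± 0.286 against 6.40 ± 0.967 RPM (SD, n = 3 each). Its log2 fold change was -0.94 (standard error 0.12, limma adjusted p = 0.010). With the block the adjusted p was 0.069, and without HuCCT1/CD90+ replicate 3 it was 0.0501.

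LTBP3 had 124, 138 and 121 RPM in HuCCT1/CD90− and 71.0, 107 and 94.9 RPM in HuCCT1/CD90+. The lines did not overlap, but HuCCT1/CD90+ replicate 1 was well below the other libraries of its line, with means of 128 ± 8.81 and 91.1 ± 18.6 RPM (SD, n = 3 each). The difference on log2(RPM + 1) was -0.50 (standard error 0.17, limma adjusted p = 0.14). Its 95% interval ran from -0.97 to -0.037, and without that library the difference was -0.34. LTBP4 had 18.1, 28.6 and 21.0 RPM in HuCCT1/CD90− and 9.54, 19.6 and 14.4 RPM in HuCCT1/CD90+, so that the lines overlapped. The means were 22.5 ± 5.41 and 14.5 ± 5.01 RPM (SD, n = 3 each). Its log2 fold change was -0.63 (standard error 0.32, limma adjusted p = 0.28), with a 95% interval from -1.48 to 0.22. Without HuCCT1/CD90+ replicate 1 the change was -0.38. On recovered reads both genes passed, LTBP3 with an adjusted p of 0.019 and LTBP4 with 0.039 (edgeR after filterByExpr), so whether they are called depends on the test.

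In LTBP4 the replicate numbers moved together: replicate 2 was the highest and replicate 1 the lowest library in both lines. Within the 3 same-numbered pairs LTBP4 differed by -0.86, -0.52 and -0.51 on log2(RPM + 1), and LTBP3 by -0.80, -0.36 and -0.35. Each of LTBP1 to LTBP4, FBN1, MFAP2 and MFAP5 was lower in HuCCT1/CD90+ in all 3 pairs, 7 of the 9 genes, where 23.4% of all genes and 35.6% of the genes whose mean reached 1 RPM were. For the 6 genes whose lines did not overlap this holds under any pairing, so only LTBP4 adds to them.

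**Figure D2:**
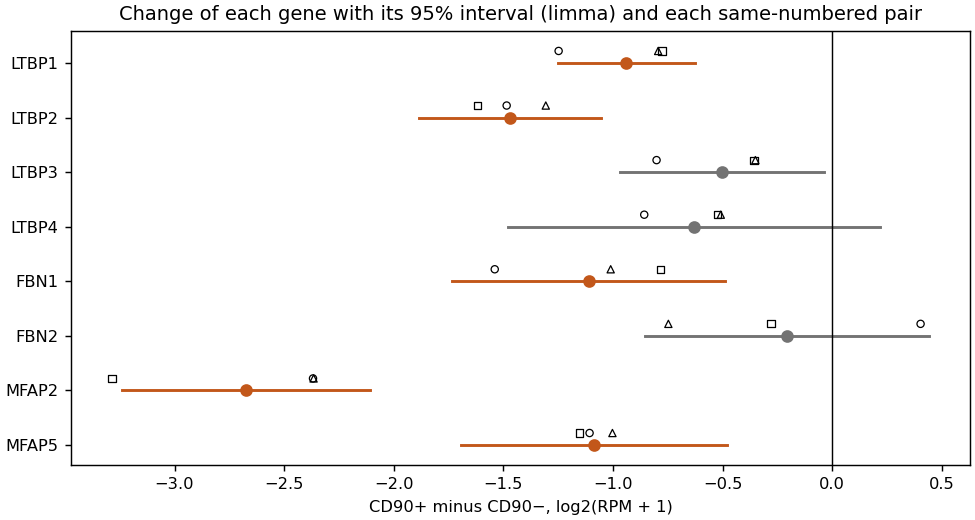
Difference between the lines on log2(RPM + 1) for each gene but LRRC32, as the limma estimate (filled point) with its 95% interval (line), and the 3 same-numbered pairs as open circles (1), squares (2) and triangles (3). Orange marks an adjusted p of at most 0.05; MFAP2 lies at -2.67, and the intervals of LTBP4 and FBN2 include 0.

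FBN1, the gene of fibrillin-1 that is mutated in Marfan syndrome, was weakly expressed in both lines. It had 30, 18 and 33 reads (2.84, 1.93 and 3.20 RPM) in HuCCT1/CD90− and 3, 6 and 10 reads (0.322, 0.699 and 1.09 RPM) in HuCCT1/CD90+. The lines did not overlap. The means were 2.66 ± 0.658 and 0.702 ± 0.382 RPM (SD, n = 3 each), and FBN1 differed by -1.11 on the log2 scale (standard error 0.23, limma adjusted p = 0.040). The offset of 1 RPM shrinks this change, which was -1.91 on recovered reads (edgeR). The call ended with the block (adjusted p = 0.090), with an offset of 0.1 RPM (0.059) and with any 1 library left out (0.059 to 0.12).

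FBN2, the fibrillin gene best known from embryonic tissue, had 0, 2 and 7 reads in HuCCT1/CD90− and 3, 0 and 0 reads in HuCCT1/CD90+. Only HuCCT1/CD90− replicate 3 was above the floor, and no difference was detectable at this depth (limma adjusted p = 0.68). LRRC32 had 0 reads in each HuCCT1/CD90− library and 0, 2 and 0 reads in HuCCT1/CD90+, so no fold is given. A count of 0 allows up to 0.284 to 0.321 RPM in the HuCCT1/CD90− libraries. FOXP3, the regulatory T cell factor found with LRRC32 in those cells, had no read in any library.

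MFAP2 changed the most of the 9 genes. It had 10.8, 16.7 and 10.9 RPM in HuCCT1/CD90−, from 112 to 156 reads, and 1.29, 0.815 and 1.30 RPM in HuCCT1/CD90+, from 7 to 12 reads. The lines were far apart, with means of 12.8 ± 3.38 and 1.13 ± 0.277 RPM (SD, n = 3 each), an 11.3-fold fall. The log2 fold change was -2.67 (standard error 0.21, limma adjusted p = 0.0032, or 0.045 with the block), and its fall ranked 161 by size among all 20811 genes. On recovered reads, without the offset of 1 RPM, it was -3.47 (edgeR).

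MFAP5, whose product also binds fibrillin, had 41.8, 29.2 and 28.6 RPM in HuCCT1/CD90− and 18.9, 12.6 and 13.8 RPM in HuCCT1/CD90+. Replicate 1 was the highest library in both lines, and the lines did not overlap. The means were 33.2 ± 7.44 and 15.1 ± 3.34 RPM (SD, n = 3 each). The log2 fold change was -1.09 (standard error 0.23, limma adjusted p = 0.040), and with the block the adjusted p was 0.018. Without any 1 library it ranged from 0.052 to 0.13.

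In all, the lines did not overlap for 6 of the 9 genes, all lower in HuCCT1/CD90+, against 17.7% of all genes lower and 17.3% higher without overlap, or 26.9% and 25.7% of those whose mean reached 1 RPM. Around each gene, the 50 nearest genes of its chromosome that reached a mean of 10 RPM had a median log2 fold change between -0.30, for MFAP2, and 0.35, for LTBP3. With that median taken from the HuCCT1/CD90+ values, MFAP2 had a log2 fold change of -2.51 (limma adjusted p = 0.0044) and LTBP3 of -0.85 (adjusted p = 0.043). In that fit 6 of the 9 genes were lower, where 8.2% of all genes were lower and 7.82% higher.

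**Figure D3:**
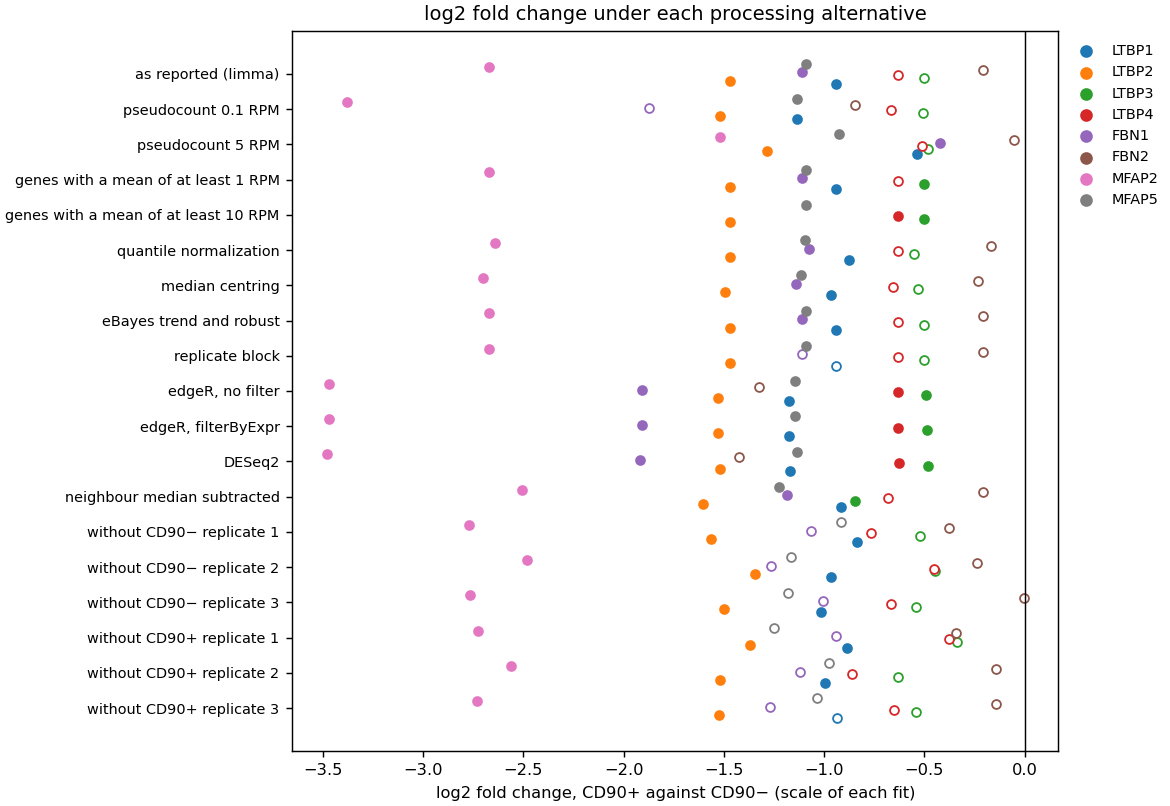
log2 fold change between the lines (horizontal axis, scale of each fit) of 8 genes, in colours, under the reported fit and each alternative, 1 row each; filled points have an adjusted p of at most 0.05. MFAP2 and LTBP2 are filled in every row in which they were tested, MFAP2 between -3.48 and -1.52 and LTBP2 between -1.60 and -1.29, while LTBP3 and LTBP4 are filled in some rows only.

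The genes around these in the pathway were taken from lists. TGFB1, which encodes the best known of the 3 ligands, had 96.1, 95.3 and 78.4 RPM in HuCCT1/CD90− and 101, 84.0 and 95.3 RPM in HuCCT1/CD90+. The libraries of the lines were interleaved, with a log2 fold change of 0.058 and a 95% interval from -0.26 to 0.37. By qRT-PCR the study itself reported lower TGFB1 in HuCCT1/CD90+, with less TGF-β1 protein in the conditioned medium and less phosphorylated Smad2. TGFB2, another ligand gene, went from 578 ± 90.7 to 199 ± 34.1 RPM (SD, n = 3 each; limma adjusted p = 0.010, or 0.076 with the block), and TGFB3 had means of 1.03 and 0.803 RPM (adjusted p = 0.57). Of the 7 ligand and receptor genes, 1 was lower (TGFB2) and 1 higher, near the share of genes called in each direction among those whose mean reached 1 RPM (15% and 14.4%). The latter was TGFBR3, the gene of betaglycan, a co-receptor that presents TGF-β2, which rose from 34.4 ± 2.89 to 54.0 ± 2.69 RPM (log2 fold change 0.64, limma adjusted p = 0.0089).

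Of 17 measured genes that release or process latent TGF-β, 3 were lower and 2 higher in HuCCT1/CD90+, with 5 at the floor in both lines and a median log2 fold change of -0.093. Of all genes 9.52% were lower and 9.41% higher, and of those whose mean reached 1 RPM 15% and 14.4%. With 1 library left out, which lowers power, 1 to 4 of the 17 were lower and 1 to 2 higher. Both directions occurred among integrin β chains, which pair with αv to pull on the latent complex. ITGB3 had 16.2, 22.6 and 23.4 RPM in HuCCT1/CD90− and 0.858, 1.51 and 0.651 RPM in HuCCT1/CD90+ (log2 fold change -3.44, limma adjusted p = 0.0020). ITGB6, the epithelial activator of TGF-β, went the other way, from 0.948, 0.642 and 0.582 to 19.9, 16.2 and 24.4 RPM (log2 fold change 3.61, adjusted p = 0.0011), and ITGB5 rose from 74.9 to 102 RPM (limma: 0.032 without and 0.064 with the block). TLL1, a tolloid protease related to the one that cleaves LTBP1, fell from 20.9 ± 4.88 to 5.94 ± 1.54 RPM and the membrane protease gene MMP14 from 325 ± 94.0 to 137 ± 11.1 RPM (SD, n = 3 each; limma adjusted p = 0.016 and 0.032). With the block MMP14 had an adjusted p of 0.078. For ITGAV, the αv chain itself, the difference was -0.33 (limma adjusted p = 0.076), short of the threshold.

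Of 28 other elastic fibre and microfibril genes, 6 were lower and 1 higher, with 8 at the floor in both lines and a median log2 fold change of -0.23, beside 9.52% lower and 9.41% higher of all genes and 15% and 14.4% of those whose mean reached 1 RPM. With 1 library left out, which lowers power, 2 to 5 were lower and 0 to 1 higher. Without a filter, edgeR called 12 lower and 3 higher. VCAN, the gene of the proteoglycan versican that binds fibrillin, had 50.6, 64.3 and 88.0 RPM in HuCCT1/CD90− and 0.858, 0.699 and 0.434 RPM in HuCCT1/CD90+ (log2 fold change -5.34, limma adjusted p = 0.00089). The fibulin genes EFEMP1 and FBLN1 fell from 221 ± 33.0 to 56.6 ± 2.38 RPM and from 11.9 ± 2.83 to 4.32 ± 1.62 RPM (SD, n = 3 each; adjusted p = 0.0020 and 0.048). FN1, the gene of fibronectin, on which fibrillin and LTBP1 are assembled, had a log2 fold change of -1.62 (limma adjusted p = 0.020). The lysyl oxidase genes, whose products cross-link elastin and collagen, were split. LOXL1 and LOXL2 fell, with log2 fold changes of -0.94 and -1.17, LOXL3 rose by 1.38 from 0.790 to 3.68 RPM (limma adjusted p = 0.018), LOX had -0.25 (adjusted p = 0.68) and LOXL4 0.82 (adjusted p = 0.060). With the block, FBLN1, LOXL1 and LOXL3 had adjusted p-values of 0.067, 0.0505 and 0.077, and LOXL4 passed (0.046). ELN itself, the gene of elastin, had means of 0.232 (HuCCT1/CD90−) and 0.591 RPM (HuCCT1/CD90+), near the floor in both. FBN3, EMILIN1, EMILIN3 and FBLN2 had no read in any library.

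**Figure D4:**
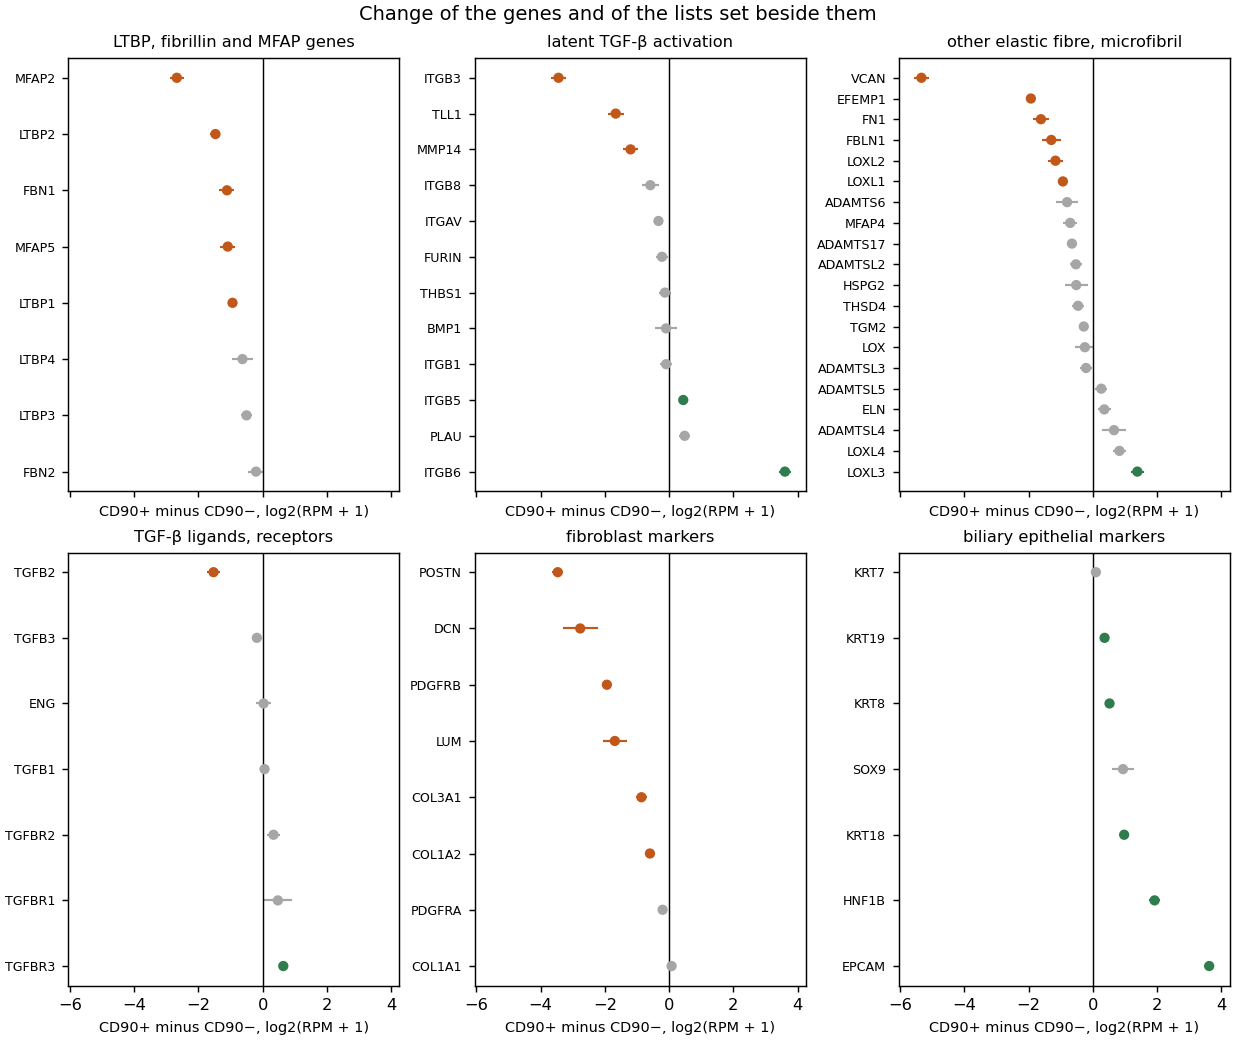
Difference between the lines on log2(RPM + 1) with its standard error (line) for the LTBP, fibrillin and MFAP genes and 5 lists, leaving out genes at the floor in both lines; orange is lower and green higher at an adjusted p of at most 0.05 (limma), grey neither. ITGB6 at 3.61 and ITGB3 at -3.44 mark the range of the activation list, and VCAN at -5.34 is the largest fall shown.

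Markers of fibroblasts, the usual source of these matrix proteins in tissue, were lower in the same line. Of 8 such markers 6 were lower and 0 higher in HuCCT1/CD90+, where 9.52% of all genes and 15% of those whose mean reached 1 RPM were lower. Their summed level was 60.6 to 91.5 RPM across HuCCT1/CD90− libraries and 21.4 to 26.2 RPM across HuCCT1/CD90+ libraries. With the block 3 of the 8 were lower, against 6.4% of all genes. The most abundant were LUM (26.4 and 7.30 RPM), POSTN (24.2 and 1.25 RPM) and COL1A1, at 13.5 and 14.2 RPM, which did not pass (limma adjusted p = 0.82). The collagen genes COL1A2 and COL3A1 had means of 0.521 and 0.847 RPM in HuCCT1/CD90− and no read in HuCCT1/CD90+. The HuCCT1/CD90− means rest on 8, 3 and 5 reads for COL1A2 and 9, 4 and 13 reads for COL3A1. The part of fibroblast markers in the lower microfibril transcripts was not tested. Fewer cells of a kind and less RNA per cell cannot be told apart in bulk RNA. Of 7 biliary epithelial markers, 5 were higher and 0 lower, or 3 and 0 with the block, where 9.41% of all genes, 14.4% of those whose mean reached 1 RPM and, with the block, 6.72% of all genes were higher. KRT19, KRT7 and KRT8 were the most abundant. The 7 summed to 8210 to 9314 RPM across HuCCT1/CD90− libraries and 10974 to 11722 RPM across HuCCT1/CD90+ libraries. Of 5 endothelial markers 1 was lower (CDH5, from 16.6 to 0.293 RPM). Of 8 leukocyte and platelet markers 1 was higher (CD68, from 50.8 to 92.2 RPM) and 1 lower (CD14, from 80.8 to 4.32 RPM), while PTPRC, the defining leukocyte gene, had a mean of at most 0.036 RPM in each line. These single calls compare with 9.52% of all genes lower and 9.41% higher.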

How the data were processed

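From total RNA the authors prepared Ion AmpliSeq Transcriptome libraries for an Ion GeneStudio S5 Prime sequencer. RPM values, from the ampliSeqRNA plugin, were deposited by the authors without a filter, and the processing notes name hg19 and Transcriptome Analysis Console. RPM were taken to log2(RPM + 1) and tested in R 4.3.3 with limma 3.58.1 (eBayes with default settings, two-sided, all 20811 genes), the method the study names. The genes and lists were chosen with earlier results of these data known. Named were THY1, the 9 genes, called genes of each list (up to 4 each way), TGFB1 to TGFB3 and the most abundant markers (up to 3 a list); other list genes were named after their values were seen. NRROS was found under LRRC33, and TSKU was not matched.

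Whole reads were recovered for 100% of values within 0.1 read and tested with edgeR 4.0.16 and DESeq2 1.42.0 as alternatives. The sources used here do not say that same-numbered libraries belong together. Deviations of same-numbered libraries from their line means correlated with r = 0.21, 0.32 and 0.18, and the other pairs gave -0.29 to 0.071. Deviations from the mean of 3 libraries sum to 0, so some pairs must offset others. These values therefore cannot establish a pairing, and the block and the same-numbered pairs assume it. All pairs of libraries within a line differed beyond sampling noise (chi-square test of reads, which covers counting error only), so none was a copy of another. The scripts were tested on simulated counts.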

Additional observations from a re-analysis of the deposited data

How the results depend on the processing

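LTBP2 and MFAP2 were called lower in each alternative in which they were tested, with adjusted p-values up to 0.033 and 0.045, and none of the 8 genes with a fold changed direction in any alternative. LRRC32 was not included. Under the replicate block 3 of the 9 genes were lower instead of 5, LTBP1 (-0.94) and FBN1 (-1.11) having passed without it. The block also left 1 higher gene of 2 in the activation list and 0 lower ligand or receptor genes of 1. With 1 library left out, 2 to 3 genes were lower, 2 without HuCCT1/CD90+ replicate 3 and 3 without any other; 5 libraries give the test less power by construction, and over all genes it then called 2197 to 2932, against 1981 lower and 1958 higher genes with all 6. In these fits the log2 fold change ran from -1.02 to -0.84 for LTBP1, from -1.27 to -0.94 for FBN1, from -1.25 to -0.92 for MFAP5, from -0.63 to -0.34 for LTBP3 and from -0.86 to -0.38 for LTBP4. With an offset of 0.1 RPM, FBN1 had -1.87 and did not pass. An offset of 5 RPM shrank the changes of MFAP2 (-1.52), LTBP1 (-0.54) and FBN1 (-0.42), which still passed.

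LTBP3 passed when the fit held only genes whose mean reached 1 RPM (-0.50, adjusted p = 0.041) or 10 RPM (-0.50, adjusted p = 0.030), with edgeR (-0.49 without and with filterByExpr), DESeq2 (-0.48) and with the median of its neighbours subtracted (-0.85). LTBP4 passed with the 10 RPM filter (-0.63), edgeR (-0.63 without and with filterByExpr) and DESeq2 (-0.63). Over all alternatives the adjusted p ran from 0.010 to 0.31 for LTBP3 and from 0.0097 to 0.52 for LTBP4. edgeR called 5735 of 20811 genes, or 5357 of 12070 after filterByExpr, and DESeq2 5326 of 17006. Without the filter edgeR estimated infinite prior degrees of freedom, which treats all genes as sharing 1 dispersion trend.

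Of the activation list, 1 to 4 genes were lower with 1 library left out (1 without HuCCT1/CD90+ replicate 1) and 1 to 2 higher (1 without HuCCT1/CD90− replicate 2 or 3 or HuCCT1/CD90+ replicate 1 or 2), and 1 was higher with quantile normalization and with neighbours subtracted. Of the other elastic fibre list, edgeR called 12 lower (10 after filterByExpr) and 3 higher with either setting, DESeq2 called 3 higher, and 2 were higher with the 1 RPM filter, quantile normalization and median centring. With 1 library left out, 2 to 5 were lower, 2 without HuCCT1/CD90− replicate 2 or 3 and 3 without HuCCT1/CD90+ replicate 3, and 0 to 1 higher, 0 without HuCCT1/CD90− replicate 2 or 3 or HuCCT1/CD90+ replicate 3. Apart from the fits with fewer libraries or fewer genes, the cause of these changes was not tested. FBN1, FBN2 and LRRC32 are limited by depth, with at most 33 reads in a library.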
